A study of Mus musculus with 24 samples.

Results

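Untreated wild-type muscle was measured at both ends of a drug study, and the 6 arrays of that muscle are compared here with each other, 3 from the 14-day arm against 3 from the 3-day arm. The arrays were chosen by their labels alone and are 6 of 24 in the series. Each array held total RNA of calf muscle (the triceps surae group) of C57/Bl6 mice aged 4 months. In the full study, wild-type mice and knockouts of MuRF1 were left untreated or drank water with 3 mg/kg of dexamethasone, a synthetic glucocorticoid, for 3 or 14 days. MuRF1 is a ubiquitin ligase of striated muscle, and Trim63 is its gene. The 8 groups held 3 arrays each. Neither of the groups compared received dexamethasone, and both served as untreated littermate controls of a treated group of the same arm. Their comparison shows how far control muscle differed between the arms. Untreated muscle of MuRF1 knockout mice, again 3 arrays per arm, gave the same comparison on separate arrays. The labels do not give the hour of tissue collection, the day of processing or the beadchip of any array, so arm, handling and array run cannot be told apart. They name separate samples without saying that these were separate animals, so the p-values rest on sample-to-sample spread that could be technical.

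The circadian clock of a muscle cell is a loop of transcription factors. ARNTL (also called BMAL1) pairs with CLOCK or NPAS2 and switches on genes through E-boxes, among them the genes of its own repressors, the PER and CRY proteins and CIART, and those of the nuclear receptors NR1D1 and NR1D2 (REV-ERB alpha and beta). The REV-ERBs repress Arntl and other genes through a nuclear receptor element on which the ROR proteins activate, and the output factors DBP, TEF and HLF act through D-boxes, so that Arntl and the Per and Dbp genes peak at nearly opposite times of day in mouse tissues. In skeletal muscle the clock gives a daily rhythm to genes of fuel use and of protein turnover.

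Promoters of 4 clock genes are shown because each carries one of the elements through which this loop works, beside a gene whose signal is described here. They come from RefSeq on build GRCm38.p6 and run from 250 bases before to 50 bases after the annotated start, in the direction of the gene, with the matched motif in capitals. The Ciart window is chr3:95882179-95882478 on the minus strand and holds 3 E-boxes (CACGTG, its own reverse complement), the first at -116 and the last at -44 from the start.
Ciart: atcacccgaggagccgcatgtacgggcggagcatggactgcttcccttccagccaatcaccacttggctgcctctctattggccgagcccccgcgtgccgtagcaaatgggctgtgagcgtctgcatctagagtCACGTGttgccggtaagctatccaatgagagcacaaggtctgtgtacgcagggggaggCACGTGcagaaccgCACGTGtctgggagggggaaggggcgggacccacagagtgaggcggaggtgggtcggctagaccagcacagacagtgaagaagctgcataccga
The Cry2 window is chr2:92434020-92434319 on the minus strand and holds 1 E-box-like CACGTT on the opposite strand at -166, which reads AACGTG here.
Cry2: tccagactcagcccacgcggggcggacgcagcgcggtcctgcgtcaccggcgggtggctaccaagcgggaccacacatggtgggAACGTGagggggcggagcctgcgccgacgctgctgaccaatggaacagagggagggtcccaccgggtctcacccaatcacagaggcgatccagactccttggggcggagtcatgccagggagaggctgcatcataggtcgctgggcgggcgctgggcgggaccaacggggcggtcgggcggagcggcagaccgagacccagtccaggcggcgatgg
The Per3 window is chr4:151044616-151044915 on the minus strand and holds 2 D-boxes (TTATGTAA) at -205 and -158.
Per3: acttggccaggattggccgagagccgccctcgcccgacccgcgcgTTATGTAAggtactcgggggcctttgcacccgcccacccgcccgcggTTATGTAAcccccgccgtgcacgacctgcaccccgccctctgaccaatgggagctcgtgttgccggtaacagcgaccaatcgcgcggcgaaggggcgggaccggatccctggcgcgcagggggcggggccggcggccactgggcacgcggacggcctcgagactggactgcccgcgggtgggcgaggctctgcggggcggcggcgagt
The window of the second annotated start of Arntl is chr7:113207261-113207560 on the plus strand and holds 1 REV-ERB/ROR element (AANT followed by AGGTCA) at 27.
Arntl: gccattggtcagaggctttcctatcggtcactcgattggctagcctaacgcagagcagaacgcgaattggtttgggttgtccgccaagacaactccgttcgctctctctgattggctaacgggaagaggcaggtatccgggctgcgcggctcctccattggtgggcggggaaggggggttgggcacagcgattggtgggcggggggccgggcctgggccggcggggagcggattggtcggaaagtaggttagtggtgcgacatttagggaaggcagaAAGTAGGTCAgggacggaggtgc
Of 17 genes looked up, the 16 measured clock genes and Usp2, 15 had an entry, with 21 windows between them. Per2 and Bhlhe40 had no entry, so no window of theirs was searched. Both strands were searched for the E-box CACGTG, the E-box-like CACGTT, the D-boxes TTATGTAA and TTACGTAA, the REV-ERB/ROR elements of AANT followed by AGGTCA or by GGGTCA, and the half-site AGGTCA, which lies inside the first of these elements. The E-box was in windows of 3 of the genes (Ciart, Per1 and Tef), 19% of the 21 windows against 7.15% of all 32851 windows. The E-box-like motif was in windows of 3 genes (Cry2, Nr1d1 and Rorb), 14.3% of the 21 windows against 4.68% of all. TTATGTAA and AANT with AGGTCA were each in a window of 1 gene, 4.76% of the 21 windows against 0.938% and 0.219% of all. The half-site was in windows of 4 genes, 19% of the 21 windows against 16.3% of all. TTACGTAA and AANT with GGGTCA were in windows of 0 genes, against 0.119% and 0.216% of all windows. The windows of Dbp and Usp2 held none of these motifs. Clock elements also lie outside windows of this length, and a match is a run of letters, not a site shown to be bound.

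Signals are given as log2 normalized signal, so that a difference of 1 is a 2-fold difference, and the order throughout is 14-day arm minus 3-day arm. Trim63 lay at 8.45, 8.64 and 8.49 on the 3-day and at 8.10, 8.10 and 8.07 on the 14-day wild-type arrays, whereas knockout untreated arrays ran from 4.46 to 5.16. Defining genes of muscle fibres were detected on the wild-type arrays, with 0 of the listed fibre genes on the platform undetected. Before normalization the wild-type arms did not overlap in the share of detected probes or in mean signal, whereas their median signals did. Between 34.9% and 36.1% of probes were detected on 3-day arrays with mean signals of 260.6 to 288.1, against 32.6% to 34.2% and 174.4 to 243 on 14-day arrays. With the share of detected probes as a covariate, an alternative added after seeing the data, 8 features passed the threshold in wild type in place of the 26 described below. Arrays of the same wild-type group correlated at 0.984 to 0.992 across features and arrays of different arms at 0.979 to 0.987. Among the 12 untreated arrays the third principal component, with 13.5% of the variance, placed the wild-type 3-day arrays between 16.7 and 20.1 and every other array at 2.64 or below.

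**Figure D1:**
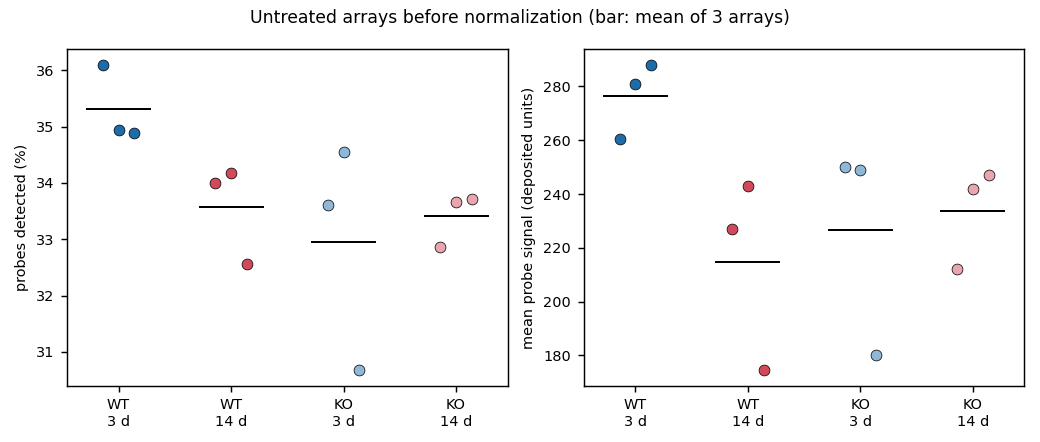
Share of probes detected (left, percent) and mean probe signal in deposited units (right) on each untreated array before normalization, with points for arrays, bars for the mean of 3, WT for wild type and KO for MuRF1 knockout. The 3 wild-type 3-day arrays lie above the 3 wild-type 14-day arrays in both panels, while the knockout arms overlap.

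Of 16262 features, which are genes or unnamed probes with a detected signal, 26 (0.16%) differed between the wild-type arms in limma at a Benjamini-Hochberg adjusted p under 0.05. The 12 that were higher in the 14-day arm (0.0738%) and the 14 that were lower (0.0861%) included 23 named genes. Clock genes and Usp2 made up 5 of the 14 lower features, and the others held the proteasome genes Psmc1 and Psmb5, the potassium channel gene Kcna7 and the endothelial receptor gene Tek. The higher features held Nr1d2, the secreted matrix protein gene Spon2 and the cytokine receptor gene Tnfrsf12a. Differences of at least 2-fold numbered 6 higher and 9 lower. At an unadjusted p under 0.05 there were 1785 features (11%), of which 828 were higher (5.09%) and 957 lower (5.88%), and on 3210 (19.7%) the 3 arrays of one arm all lay on one side of the 3 of the other. The 26 were all of this kind. Centring arrays on their medians in place of quantile normalization moved the median of all features to -0.25 and gave 31 higher and 1944 lower features, 1.57% higher in place of 46.2%, and 17 of the 26 were among them. Leaving out 1 array gave 12, 11 and 12 features without 3-day replicate 1, 2 or 3 and 15 without 14-day replicate 2.

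Among the clock repressors, Per2, Ciart and Cry2 were lower in the 14-day arm. Per2, which encodes a period protein that represses CLOCK and ARNTL, had signals of 7.77, 7.82 and 7.92 in the 3-day arm and of 4.46, 5.32 and 6.38 in the 14-day arm. The arms did not overlap, and the 14-day arrays were far more spread than the 3-day arrays. The signal was 5.46-fold lower, a log2 difference of -2.45 (SE 0.39, limma adjusted p = 0.00491), and Per2 was detected on 2 of the 3 14-day arrays. Ciart, which encodes another repressor of CLOCK and ARNTL, lay at 6.55, 6.55 and 6.29 and then at 4.83, 4.91 and 4.88. Its 14-day arrays were tightly grouped and all lay more than 1 unit below the 3-day arrays. Ciart was detected on 3 of 3 14-day arrays, but close to their lowest detected signals of 4.71, 4.70 and 4.75. The log2 difference was -1.59 (SE 0.19, limma adjusted p = 0.000175), or 3.01-fold lower, the smallest adjusted p of any clock gene. Over 19 alternative ways of processing and fitting, the Ciart difference ran from -2.18 to -0.64. Cry2, the gene of a cryptochrome that represses together with the PER proteins, lay at 8.05, 7.88 and 8.03 against 6.42, 6.57 and 7.33, with no overlap. It was 2.32-fold lower, with a log2 difference of -1.21 (SE 0.23, limma adjusted p = 0.0206).

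The other period genes did not pass the threshold. Per1, which is also induced by glucocorticoids, lay at 6.05, 6.29 and 6.79 in the 3-day arm and at 4.31, 5.14 and 6.62 in the 14-day arm, where 14-day replicate 3 fell within the 3-day range. The log2 difference was -1.02 (SE 0.40, limma adjusted p = 0.326). In a fit of single probes, a second Per1 probe gave -0.59 (SE 0.18, limma adjusted p = 0.195). That probe was detected on 3 of 3 3-day and 0 of 3 14-day arrays. Per3 lay at 8.05, 7.67 and 7.44 against 7.01, 6.75 and 7.47, which overlapped by 1 array, with a log2 difference of -0.64 (SE 0.25, limma adjusted p = 0.331). Tested singly, a second Per3 probe, detected on 3 of 3 arrays of both arms, gave -0.46 (SE 0.22, limma adjusted p = 0.474). The dimmest one was detected on 3 of 3 3-day and 0 of 3 14-day arrays and passed the threshold in that fit (limma adjusted p = 0.028), with only an upper limit to its 14-day signal. Bhlhe40, the gene of a repressor that competes for E-boxes, differed by -0.04 (SE 0.17, limma adjusted p = 0.968). Replicate 3 of the 14-day arm stood nearest to the 3-day arm for Per1, Per2, Per3, Cry2 and Dbp.

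The REV-ERB genes lay the other way. Nr1d2, the gene of REV-ERB beta, had signals of 5.87, 6.76 and 5.76 in the 3-day arm and of 7.53, 7.42 and 7.06 in the 14-day arm. No array overlapped, although 3-day replicate 2 lay within 0.5 of a 14-day array. It was 2.31-fold higher (log2 difference 1.21, SE 0.24, limma adjusted p = 0.0375), and its second, dimmer probe differed by -0.34 (SE 0.24) in a fit of single probes. Nr1d1, the gene of REV-ERB alpha, lay at 8.14, 8.54 and 8.40 against 9.25, 9.16 and 8.97, with no overlap, and just missed the threshold with a log2 difference of 0.77 (SE 0.16, limma adjusted p = 0.0536). Tested singly, its other 2 kept probes gave 0.90 (SE 0.15, limma adjusted p = 0.00853) and -0.22 (SE 0.16, limma adjusted p = 0.673). So the probes of this gene did not all lie on the same side.

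Among the activators, 0 of 6 measured genes passed the threshold in limma, against 0.16% of all features. An unadjusted p under 0.05 was reached by 4, of which 3 were higher and 1 lower, against 11% of all features. Arntl had signals of 5.08, 5.22 and 4.58 in the 3-day arm and of 6.75, 6.66 and 5.47 in the 14-day arm. The arms did not overlap, and 14-day replicate 3 again lay nearest to the 3-day arm. The log2 difference of 1.34 (SE 0.30) is 2.53-fold and had a limma adjusted p of 0.0666. Clock lay at 7.80, 8.02 and 7.93 against 8.45, 8.49 and 8.26, a difference of 0.49 (SE 0.14, limma adjusted p = 0.19). With arrays centred on their medians in place of quantile normalization it was -0.12, which is 0.13 above the median of all features in that setting. Npas2, a partner of ARNTL like CLOCK, was detected on 0 of 3 3-day and 1 of 3 14-day arrays, too dim for a fold to be given. Rora, the gene of an activator at the REV-ERB element, lay at 9.92, 9.97 and 10.23 against 9.65, 9.59 and 9.53. These did not overlap, with a log2 difference of -0.45 (SE 0.15, limma adjusted p = 0.254). For Arntl2 and Rorb the arms overlapped and the differences were -0.09 and -0.01.

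**Figure D2:**
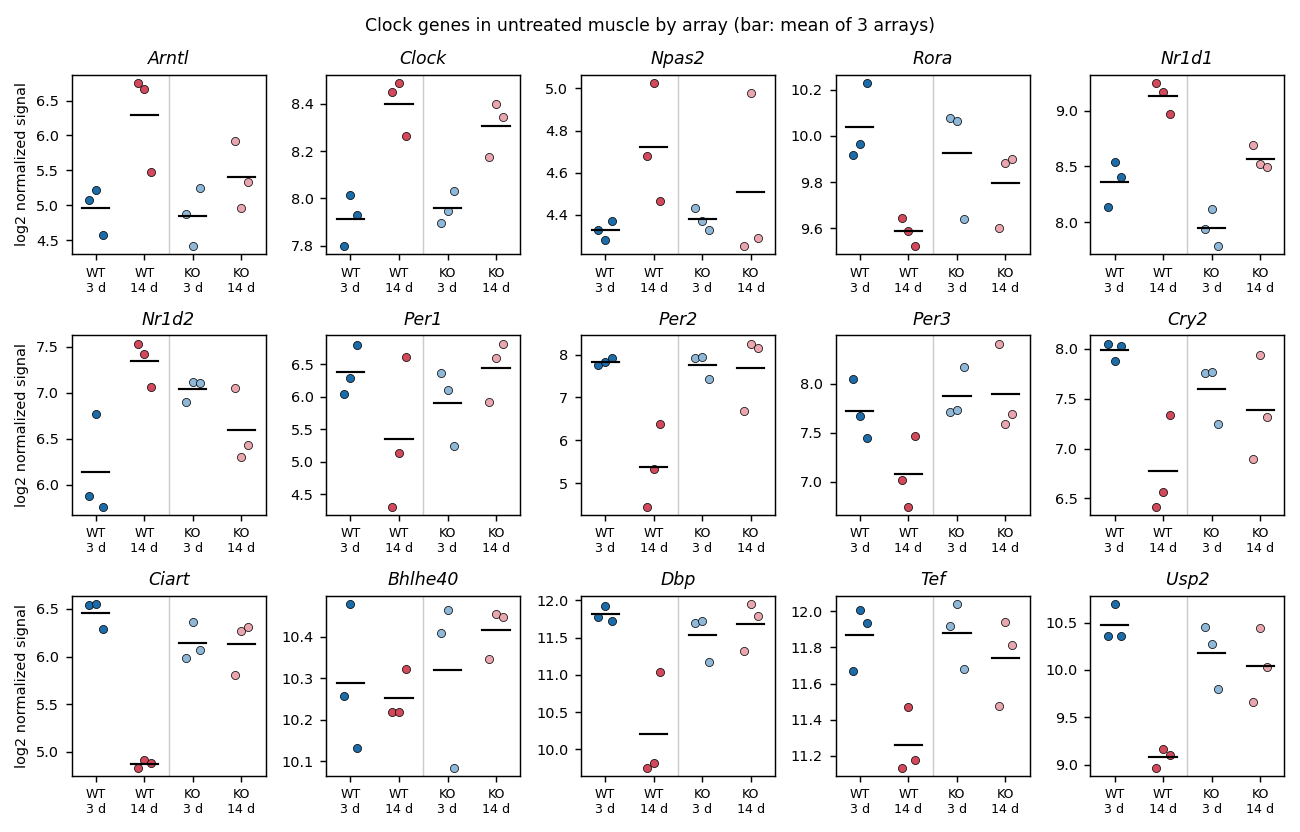
Log2 normalized signal of 14 clock genes and Usp2 on each untreated array, with WT for wild type, KO for MuRF1 knockout, 3 d and 14 d for the arms, points for arrays and bars for the mean of 3. The vertical scale differs between panels. Per2 lies between 7.77 and 7.92 on wild-type 3-day arrays and between 4.46 and 6.38 on wild-type 14-day arrays, and the knockout arms overlap for Per2, Dbp, Ciart, Cry2 and Usp2.

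Of the output factors, Dbp was lower in the 14-day arm and Tef did not pass the threshold. Dbp, whose protein activates genes through D-boxes, had signals of 11.78, 11.93 and 11.73 in the 3-day arm and of 9.76, 9.82 and 11.04 in the 14-day arm. The arms did not overlap, and 14-day replicate 3 lay about 1 unit above its group mates. The signal was 3.05-fold lower, a log2 difference of -1.61 (SE 0.30, limma adjusted p = 0.02). Tef, the gene of a related D-box factor, lay at 11.67, 12.01 and 11.94 against 11.13, 11.47 and 11.18, also without overlap, with a log2 difference of -0.61 (SE 0.16, limma adjusted p = 0.106). Tested singly, its 2 other kept probes, both dimmer, gave -0.15 (SE 0.20, limma adjusted p = 0.855) and -0.08 (SE 0.23, limma adjusted p = 0.947). Usp2 encodes a deubiquitinating enzyme whose transcript follows the clock in many mouse tissues. It lay at 10.36, 10.69 and 10.36 against 8.97, 9.17 and 9.10, which was 2.63-fold lower (log2 difference -1.39, SE 0.20, limma adjusted p = 0.00157). In a fit of single probes its 2 other bright probes gave -1.24 (SE 0.28, limma adjusted p = 0.0614) and -0.83 (SE 0.26, limma adjusted p = 0.229), and a dim one -0.02.

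Over the 3 clock lists, 16 of 21 listed genes were measured, 5 of these passed the threshold, 1 higher and 4 lower, and the share of all features past it was 0.16%. Hlf, Cry1 and Bhlhe41 had a probe without enough detected signal, and Nfil3 was not matched to a probe. An unadjusted p under 0.05 was reached by 13 of the 16, against 11% of all features. The arms did not overlap for 11 of the 16, against 19.7% of all features. The median size of the log2 difference was 0.71 over the 16 genes and 0.15 over all features. Median differences were -0.83 over the 8 repressors and -1.11 over the 2 output factors, and these stayed below 0 and below the median of all features under each scaling tried. The median of the 6 activators was 0.19, and with median centring it was -0.15 against -0.25 over all features. Among the kinases, ligases and other partners of the clock, Usp2 was the 1 of 6 measured genes past the threshold. The casein kinase genes Csnk1d and Csnk1e, whose products mark PER proteins for degradation, differed by -0.42 (SE 0.14, limma adjusted p = 0.243) and -0.36 (SE 0.16, limma adjusted p = 0.4). Of 24 measured outputs of the muscle clock only Usp2 passed, and 9 had an unadjusted p under 0.05, 3 higher and 6 lower. With the share of detected probes as a covariate, 2 clock genes passed in place of 5.

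**Figure D3:**
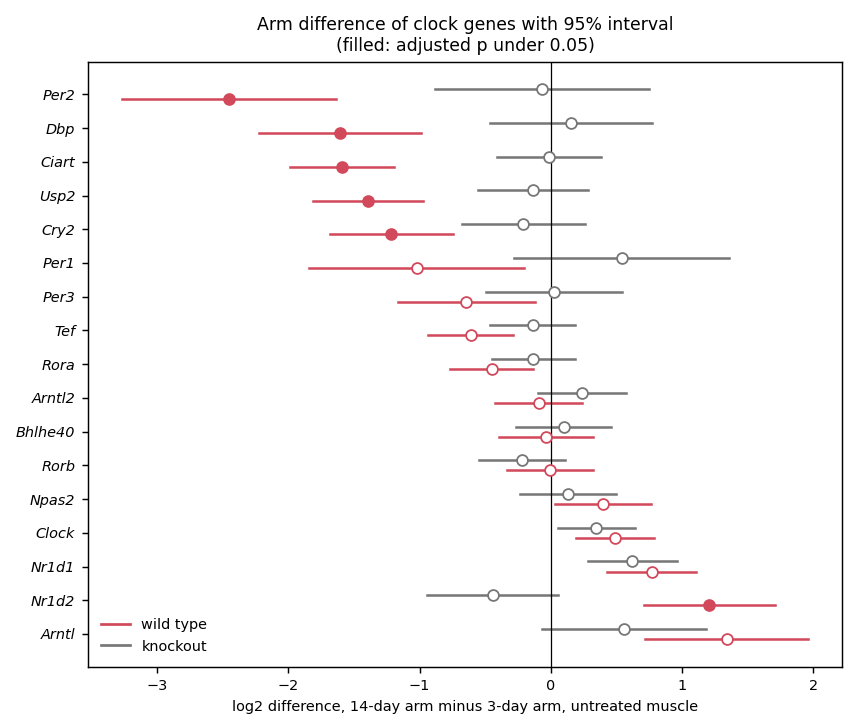
Log2 difference between arms (horizontal axis, 14-day minus 3-day) of 16 clock genes and Usp2 in untreated wild-type and knockout muscle, with points for the estimate, lines for its 95% interval and filled points for an adjusted p under 0.05. Wild-type estimates run from -2.45 for Per2 to 1.34 for Arntl, and all the knockout intervals except those of Clock and Nr1d1 include 0.

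The same comparison in untreated knockout muscle gave 1 feature past the threshold (0.00615%) and 1072 at an unadjusted p under 0.05 (6.59%). Without knockout 14-day replicate 1 that count was 11, and without knockout 3-day replicate 3 it was 4. None of the 16 clock genes passed the threshold in limma, and 2, Nr1d1 and Clock, had an unadjusted p under 0.05. Per2 lay at 7.91, 7.95 and 7.43 in the knockout 3-day arm and at 6.67, 8.26 and 8.15 in the 14-day arm. These ranges overlapped, with a log2 difference of -0.07 (SE 0.39), where the wild-type difference was -2.45. Knockout differences were -0.01 for Ciart, 0.15 for Dbp, -0.13 for Usp2 and -0.21 for Cry2, each with overlapping arms. Nr1d1 differed by 0.62 (SE 0.16, limma adjusted p = 0.372) and Clock by 0.35 (SE 0.14, limma adjusted p = 0.676), both without overlap and both on the same side as in wild type. Nr1d2 lay on the other side, at 6.90, 7.11 and 7.11 against 7.05, 6.30 and 6.43, a difference of -0.44 (SE 0.24, limma adjusted p = 0.798). For Per2 and Dbp each of the 6 untreated knockout arrays lay above each wild-type 14-day array, with lowest knockout signals of 6.67 and 11.18.

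The difference between the genotypes was itself tested, and 0 of 16262 features (0%) passed the threshold in limma, with 1216 (7.48%) at an unadjusted p under 0.05. The smallest adjusted p was 0.0968, for Ciart, whose arm difference was lower in wild type by 1.58 (SE 0.27) on the log2 scale. By size, the lower side was led by Per2 (-2.38, SE 0.56, limma adjusted p = 0.275), Dbp (-1.76, SE 0.42, limma adjusted p = 0.308) and Psmc1 (-1.69, SE 0.61, limma adjusted p = 0.598). Socs2, Erdr1 and Ciart came next, with Socs2 at -1.67 and Erdr1 at -1.60. The higher side was led by S100a8 (1.66, limma adjusted p = 0.605), which was not detected on any untreated knockout array, and Nr1d2 (1.65, SE 0.34, limma adjusted p = 0.179), followed by Pttg1, Kcnma1, Rfxap and Cars between 1.44 and 1.58. A clock difference in wild type and none past the threshold in knockout is thus not shown to be a difference between genotypes. Of the 26 wild-type features, 20 had the same sign in knockout, a count given without the share over all features. In knockout 7 of the 26 had an unadjusted p under 0.05, against 6.59% of all features, and 1 passed the threshold, against 0.00615%. Over all features the arm differences of the genotypes had r = 0.122, a description across 16262 features that share array-wide effects.

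**Figure D4:**
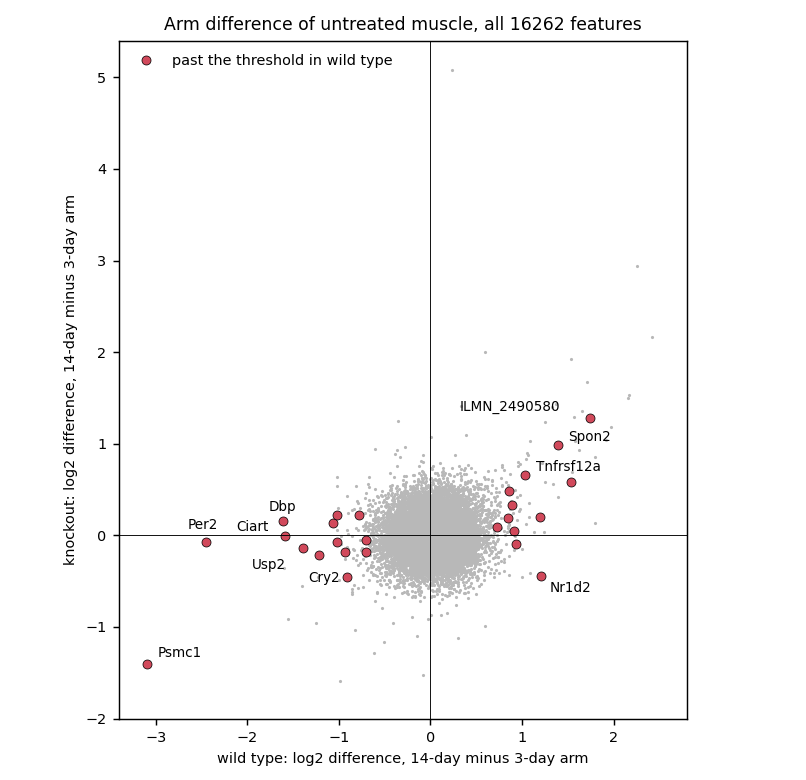
Log2 difference between arms in untreated wild-type muscle (horizontal axis) and in untreated knockout muscle (vertical axis) for each of 16262 features, with red points for the 26 past the threshold in wild type. Per2, Dbp, Ciart, Usp2 and Cry2 lie far left near 0 on the vertical axis, while Psmc1, Spon2 and probe ILMN_2490580 are displaced the same way in both genotypes.

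Outside the clock, the 19S proteasome gene Psmc1 had the largest difference of the features that passed. It encodes an ATPase of the base that unfolds substrates. Its signals were 8.49, 8.41 and 8.40 in the 3-day arm and 5.87, 4.84 and 5.30 in the 14-day arm, which was 8.56-fold lower (log2 difference -3.10, SE 0.43, limma adjusted p = 0.00107). In knockout muscle it lay at 8.29, 7.84 and 7.78 against 6.83, 6.82 and 6.03, again without overlap, with a log2 difference of -1.41 (SE 0.43, limma adjusted p = 0.561). A single probe measured this gene. Psmb5, the gene of a catalytic subunit of the 20S core, lay at 10.98, 10.74 and 10.80 against 10.21, 10.09 and 10.11 (log2 difference -0.70, SE 0.14, limma adjusted p = 0.039). Over 33 measured proteasome genes, a list made after values were seen, 2 were lower past the threshold (0.0861% of all features) and 0 higher. These were Psmc1 and Psmb5 themselves, so their count is not a test of the list. The median difference was -0.11 against 0.00 over all features, and with median centring -0.73 against -0.25. An unadjusted p under 0.05 was reached by 6 lower and 0 higher members, against 5.88% and 5.09% of all features. Without Psmc1 and Psmb5 the lower ones were Psmb3, Psmf1, Psmd4 and Psma3, between -0.43 and -0.32.

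The remaining genes that were lower in the 14-day arm have varied roles. Kcna7, which encodes a voltage-gated potassium channel, lay at 7.98, 7.53 and 7.53 against 6.27, 6.87 and 6.71, with a log2 difference of -1.06 (SE 0.21, limma adjusted p = 0.0358). Smco1, the gene of a membrane protein with a coiled coil, had tight groups at 9.30, 9.43 and 9.51 against 8.39, 8.44 and 8.34, which gave -1.02 (SE 0.13, limma adjusted p = 0.000332). Stard3, which encodes a cholesterol carrier of late endosomes, also differed by -1.02 (SE 0.20, limma adjusted p = 0.0317), with no overlap. The lysosomal transporter gene Slc46a3 was lower by 1.88-fold and the ubiquitin ligase gene Rnf103 by 1.71-fold, with limma adjusted p of 0.043 and 0.0209. Tek, the angiopoietin receptor gene of endothelial cells, lay at 6.15, 6.34 and 6.21 against 5.69, 5.61 and 5.29, a log2 difference of -0.71 (SE 0.15, limma adjusted p = 0.0487). In bulk muscle, fewer cells of a type and less RNA per cell cannot be told apart. Tek was 1 of 14 measured endothelial markers, of which 9 lay above 0, with a median log2 difference of 0.07. The summed endothelial signal overlapped, at 3374 to 4573 in the 3-day and 3977 to 4390 in the 14-day arm.

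Among the genes that were higher in the 14-day arm, Spon2, which encodes a secreted matrix protein, led the named genes. It lay at 6.06, 6.11 and 6.14 in the 3-day arm and at 7.61, 7.47 and 7.39 in the 14-day arm, 2.62-fold higher (log2 difference 1.39, SE 0.22, limma adjusted p = 0.00444). In knockout muscle it lay at 5.46, 5.43 and 5.63 against 7.15, 5.82 and 6.53, also without overlap, a difference of 0.99 (SE 0.22, limma adjusted p = 0.168). Tnfrsf12a, the gene of the receptor for the cytokine TWEAK, lay at 7.69, 7.47 and 7.75 against 8.82, 8.90 and 8.28, with a log2 difference of 1.03 (SE 0.18, limma adjusted p = 0.0122). The knockout difference was 0.66 (SE 0.18) without overlap. Ppp1r27, which encodes a regulatory subunit of protein phosphatase 1, lay at 11.16, 11.25 and 11.12 against 12.18, 12.12 and 12.03 in wild type (log2 difference 0.93, SE 0.15, limma adjusted p = 0.00554). Its knockout arrays ran from 11.38 to 12.10 in the 3-day arm and from 11.47 to 11.70 in the 14-day arm, a difference of -0.09. The cell adhesion gene Clmp was higher by 2.29-fold (limma adjusted p = 0.0451). Sphk2, which encodes a sphingosine kinase, Acin1, which encodes a protein of nuclear RNA processing, Anxa5, which encodes a phospholipid-binding annexin, and Wsb1, which encodes a substrate receptor of a ubiquitin ligase, were higher by 1.80-fold to 1.89-fold. Of the 23 named genes past the threshold, 8 had another kept probe, and for 0 of them did another probe pass in limma. Another Acin1 probe, detected on 3 of 3 arrays of both arms, lay the other way at -0.17 (SE 0.20, limma adjusted p = 0.819). A second Clmp probe, detected as widely, gave 0.64 (SE 0.17, limma adjusted p = 0.119). The other probes of Sphk2, Rhoj, Rnf103 and Spon2 were dim.

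A few features separated the arms in every group of the study. On 7 of 16262 (0.043%) all 12 14-day arrays lay on one side of all 12 3-day arrays, treated and knockout arrays included, 1 above (0.00615%) and 6 below (0.0369%). The unnamed probe ILMN_2490580, named here after its values were seen, was detected on 0 of 12 3-day and 12 of 12 14-day arrays. Only 14-day arrays, where it is high, therefore brought it past the probe filter, which limits what its tests and its separation show. Its signals were 4.51, 4.35 and 4.28 on the wild-type 3-day and 6.13, 5.97 and 6.25 on the wild-type 14-day arrays. It was at least 2.72-fold higher in wild type (limma adjusted p = 1.32e-06) and at least 1.85-fold higher in knockout (limma adjusted p = 0.000394), the 1 feature past the threshold in both. These bounds set the 14-day mean against the lowest detected signal of each 3-day array. Psmc1 was among the 6 below, with 3-day arrays from 7.64 to 8.86 and 14-day arrays from 4.41 to 6.83. The others were Polr3e, Lrrc14b, Fam76a and the unnamed probes ILMN_1217489 and ILMN_1259544. Polr3e, which encodes a subunit of RNA polymerase III, had 3-day arrays from 5.33 to 6.23 and 14-day arrays from 4.70 to 5.25. ILMN_1259544 was detected on 3 of 12 3-day and 0 of 12 14-day arrays, so only 3-day arrays brought it past the probe filter. Its signals of 4.518 to 4.986 against 4.244 to 4.498 lay near background, so its separation says little about the arms. No clock gene separated the arms on all arrays. Among the other wild-type features without a gene name, ILMN_2495796 differed by 1.54 (SE 0.29, limma adjusted p = 0.0209) and ILMN_1242935 by -0.93 (SE 0.15, limma adjusted p = 0.00491).

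**Figure D5:**
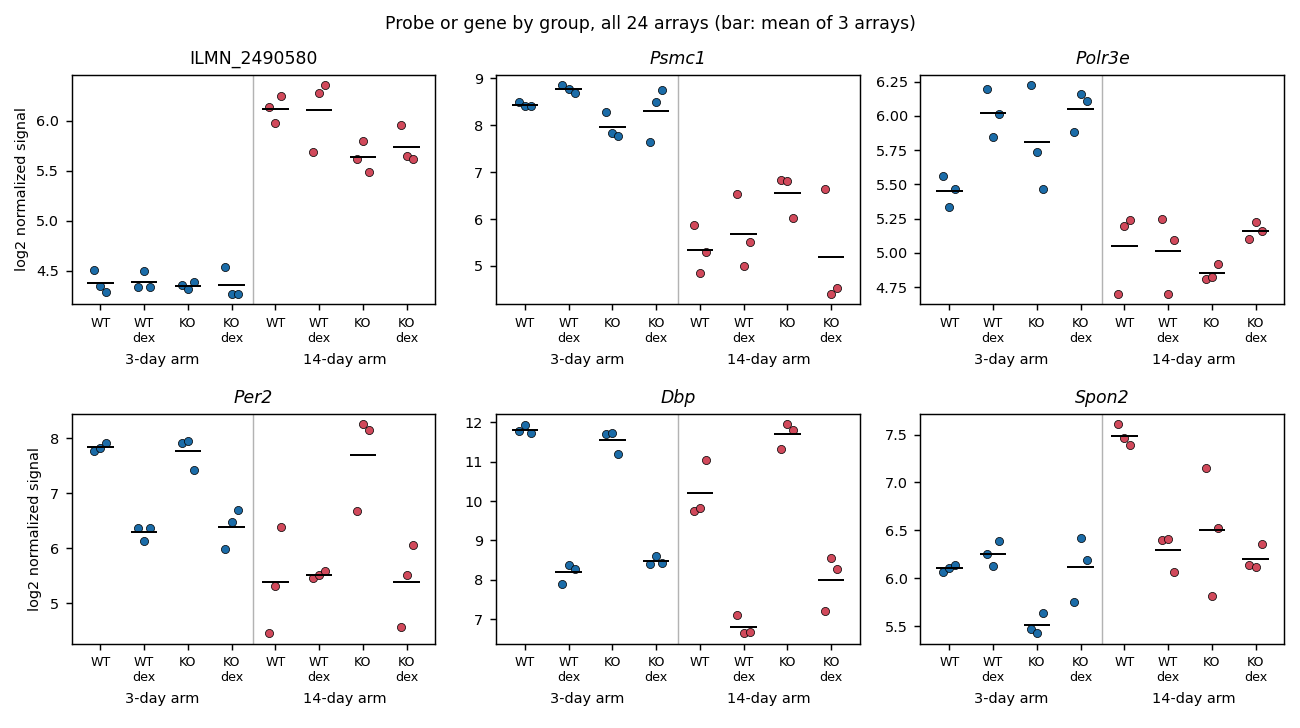
Log2 normalized signal on all 24 arrays for a probe and 2 genes that separate the arms (top) and for Per2, Dbp and Spon2 (bottom), with WT for wild type, KO for MuRF1 knockout, dex for dexamethasone, points for arrays and bars for the mean of 3. In the top row no 14-day array crosses the 3-day arrays, with ILMN_2490580 between 4.27 and 4.53 on 3-day and between 5.49 and 6.36 on 14-day arrays, while Per2 and Dbp overlap between the arms once treated or knockout arrays are included.

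Averaged over the other 3 groups of each arm, a comparison added after the data were seen, 1225 features (7.53%) passed the threshold in limma. Treated muscle in those groups also differed in the length of dexamethasone treatment. The average shared 13 of the 26 wild-type features in the same direction, 50% of the wild-type and 1.06% of the averaged calls. The same sign was found for 21 of the 26, again without the share over all features beside it. It differed by -2.53 for Psmc1 and by 1.46 for ILMN_2490580. For the clock genes called in untreated wild type it was -0.05 for Ciart, -0.33 for Cry2, 0.00 for Nr1d2 and -0.62 for Per2, with limma adjusted p of 0.814, 0.119, 0.998 and 0.0965. Dbp differed by -0.56 (limma adjusted p = 0.0461) and Usp2 by -0.53 (limma adjusted p = 0.00749) in the average, both past the threshold. So were 4 clock genes that had not passed in untreated wild-type muscle, each on the same side as there, with Arntl at 0.61 (limma adjusted p = 0.033), Clock at 0.31 (limma adjusted p = 0.0243), Nr1d1 at 0.32 (limma adjusted p = 0.0408) and Rora at -0.58 (limma adjusted p = 0.000452). In the average Tnfrsf12a differed by -0.59 (limma adjusted p = 0.00157) and Ppp1r27 by -0.45 (limma adjusted p = 0.00332), both opposite to untreated wild-type muscle. By group, Tnfrsf12a differed by -0.80 in treated wild type and -1.64 in treated knockout, but by 0.66 in untreated knockout, the same side as in untreated wild type. In the same order of groups Ppp1r27 differed by -0.77, -0.49 and -0.09, and Rora by -0.62, -0.995 and -0.13.

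Genes that answer to hormones and feeding were read from lists. Of 28 measured glucocorticoid-responsive genes, 1 passed the threshold (0.16% of all features), Cry2, and 9 had an unadjusted p under 0.05, 4 higher and 5 lower, against 5.09% and 5.88% of all features. Fkbp5, which encodes a co-chaperone induced by the glucocorticoid receptor, lay at 6.30, 6.50 and 6.32 against 7.29, 7.33 and 7.09 without overlap (log2 difference 0.86, SE 0.23, limma adjusted p = 0.12). The other 3 higher ones were Angptl4 at 1.24, Pdk4 at 0.89 and Cdkn1a at 0.72, and the lower ones were Cry2, Per1, Trim63, Sgk1 at -0.49 and Glul, the glutamine synthetase gene, at -1.0 (SE 0.31, limma adjusted p = 0.218). Of the 28 genes, 14 lay above 0, and the glucocorticoid-induced genes Klf15 and Zbtb16 differed by 0.02 and -0.20. Of 23 fasting and feeding genes, 0 passed the threshold in limma, and 5 higher and 0 lower had an unadjusted p under 0.05, against 5.09% and 5.88% of all features. These were Sqle, Txnip, Ppp1r3c, Pdk4 and Angptl4, with log2 differences from 0.74 to 1.24. Angptl4, whose secreted product inhibits lipoprotein lipase, lay at 4.60, 5.07 and 5.18 against 5.93, 6.74 and 5.92 (SE 0.35, limma adjusted p = 0.167). The median of that list was 0.26, and with median centring it was -0.26, beside -0.25 over all features. Cish and Socs2, which encode feedback inhibitors of growth hormone signalling, were singled out after their values were seen. Cish lay at 8.55, 8.36 and 8.87 against 6.74, 6.80 and 7.45 (log2 difference -1.60, SE 0.37, limma adjusted p = 0.0811), and Socs2 differed by -1.02 (SE 0.31, limma adjusted p = 0.197), while 7 of 9 genes of that pathway list had limma adjusted p of 0.255 or more. Of these 9 genes 6 lay above 0, and 1 higher and 3 lower had an unadjusted p under 0.05, against 5.09% and 5.88% of all features. The median of the 9 was 0.18, and with median centring it was -0.47, beside -0.25 over all features.

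Contractile, mitochondrial and ribosomal genes were also read from lists. None of the 11 slow fibre, 16 fast fibre, 50 oxidative phosphorylation and 36 ribosomal protein genes measured passed the threshold in limma, and 1, 2, 6 and 2 of them had an unadjusted p under 0.05, against 11% of all features. Median differences were 0.19 for slow fibre genes, -0.05 for fast fibre genes, -0.12 for oxidative phosphorylation and 0.03 for ribosomal proteins, against 0.00 over all features. With median centring these medians were -0.31, -0.41, -0.63 and -0.50, against -0.25 over all features. Of 38 extracellular matrix genes, 0 passed in limma, and 8 higher and 1 lower had an unadjusted p under 0.05 (5.09% and 5.88% of all features), led by Mmp14 (0.70) and Eln (0.68) with limma adjusted p of 0.0819 and 0.0865. The matrix median was 0.13, and -0.30 with median centring, beside -0.25 over all features. Among 19 temperature and heat shock genes 0 passed in limma and 3 had an unadjusted p under 0.05, against 11% of all features. Of these, the cold-inducible RNA-binding protein genes Rbm3 and Cirbp differed by -0.60 (SE 0.18, limma adjusted p = 0.202) and -0.68 (SE 0.31, limma adjusted p = 0.433), both without overlap.

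Among the markers of other cell types, Tek was the only gene past the threshold (0.16% of all features). Some summed signals did not overlap between the arms, as was so for 19.7% of single features. Epidermal genes, listed after their values were seen, stood out by size although 0 of 19 passed the threshold in limma. Their median log2 difference was 1.25, against 0.00 over all features, 18 of 19 were above 0, and under the other scalings the median lay between 0.67 and 1.43. Krt14, a keratin gene of basal skin cells, lay at 6.67, 5.0 and 7.34 in the 3-day and at 8.0, 8.40 and 9.88 in the 14-day arm (log2 difference 2.42, SE 0.89, limma adjusted p = 0.293). The summed epidermal signal was 614.9 to 1269 in the 3-day and 1669 to 6915 in the 14-day arm, without overlap, and 0 of the listed genes on the platform were undetected in wild type. In knockout muscle the sum was 471.8 to 498.2 against 477.3 to 2935. The neutrophil sum over 5 of 10 listed genes was 120.4 to 129.6 against 145.3 to 593.8, with S100a8 at 5.62, 8.34 and 5.27 in the 14-day arm and Cxcr2 undetected. The macrophage sum over 14 of 18 genes overlapped, at 1327 to 1781 against 1608 to 2520, with Cd163 undetected. An unadjusted p under 0.05 was reached by 4 macrophage genes, Lyz2 among them at 0.76, against 11% of all features. The tendon sum over 10 of 11 genes overlapped, at 1288 to 2188 against 1776 to 4455, with Thbs4 undetected. Sums of red cell, adipocyte, fibroblast, smooth muscle and Schwann cell markers overlapped. The satellite cell sum over 6 of 9 genes was 504.1 to 545.2 against 562.2 to 595.2, with Pax7, Myf5 and Calcr undetected. The lymphocyte sum over 2 of 16 genes was 47.5 to 51.7 against 57.5 to 60.1, with 6 other listed genes undetected. The lymphocyte sums and the 3-day neutrophil sum lay near background. The muscle fibre sum over 8 of 10 genes was 158400 to 175300 against 153400 to 155100 and did not overlap. The part of skin, immune cells, array brightness or tissue share in the differences described here was not tested beyond the covariate fit given above.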

How the data were processed

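Mouse Illumina beadchips measured total RNA of 24 muscle samples, 3 in each of 8 groups taken from the labels. The deposited table holds the authors' average bead signal intensity per probe, not normalized, with a detection p-value per probe and array, per the file headers. BeadStudio 3.2.3 is named in the submitters' processing notes. A second deposited table holds normalized signal intensity from the authors and served as an alternative. Of 46632 probes, 29976 had 1 gene symbol, 10 several and 16646 none in the platform annotation used.

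Signals were background-corrected and quantile-normalized with neqc (limma 3.58.1, R 4.3.3, offset 16), which sets the negative controls from the detection p-values and returns log2 values. The 20769 probes with a detection p under 0.05 on at least 3 of 24 arrays were kept, and each named gene was read from its brightest probe, which left 16262 features, 11010 of them named. A mean per group was fitted over all 24 arrays (16 residual degrees of freedom, eBayes), with p-values adjusted by Benjamini-Hochberg within each comparison at 0.05. The number of arrays limits the precision.

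The named genes were Trim63, all measured clock genes, up to 12 genes per direction past the threshold in wild type whose arms do not overlap, up to 8 per direction past it in both genotypes, up to 6 per direction by size in the genotype difference, and up to 4 members past it per other list. Genes named beyond that rule were chosen after their values were seen: Fkbp5, Zbtb16, Sgk1, Klf15, Glul, Sqle, Txnip, Ppp1r3c, Pdk4, Cdkn1a, Angptl4, Cish, Mmp14, Eln, Rbm3, Cirbp, Csnk1d, Csnk1e, Krt14, Lyz2 and the proteasome genes other than Psmc1 and Psmb5. All gene lists and the groups compared were chosen with earlier results of these data known, and the proteasome, epidermal and growth hormone lists after these values were seen. Some listed or called genes are not reported here. The script was tested on simulated data. Alternatives covered background correction, scaling, offset, probe filters, the arrays fitted, moderation, a replicate block and leaving out each array.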

Additional observations from a re-analysis of the deposited data

How the results depend on the processing

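The calls of Ciart, Per2, Psmc1, Smco1, Spon2, Usp2 and the probes ILMN_2490580 and ILMN_1242935 held in all 19 alternatives run for the wild-type comparison, whereas those of Cry2, Dbp and Nr1d2 were lost in 7, 9 and 10 of them. The main counts were 26 features in wild type, 1 in knockout, 0 for the genotype difference and 5 clock genes. Without background correction the wild-type count was 50 and the genotype count 2, and with an offset of 50 they were 57 and 2. With median centring they were 1975 and 5, with 9 clock genes. From the authors' value table the counts were 53 in wild type, 3 in knockout and 5 for the genotype difference. Without a filter on dim probes the knockout count was 3 and 2 clock genes passed, and with every probe tested singly the knockout and genotype counts were 2 and 1. Fitting only the groups compared gave 49 in wild type, trended and robust moderation gave 4 in knockout, and leaving out replicate 3 of the treated 3-day knockout gave 50 and 4. The share of detected probes as a covariate left 8 features and 2 clock genes. Leaving out each array of the groups compared gave 11 to 20 features in wild type, 2 to 6 clock genes, 1 to 11 features in knockout and 0 to 4 for the genotype difference, the 4 without wild-type 14-day replicate 3. The causes of these shifts were not tested.

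With the replicate number as a block, 22 features passed in wild type, 1 in knockout and 1 for the genotype difference, with 4 clock genes. Same-numbered wild-type arrays had deviations correlated at 0.0913, 0.0786 and 0.00668, so these numbers do not show a pairing there. The replicate numbers of the authors' value table differ from those of the signal table in some groups, and a block by those numbers, added after seeing the data, gave 39 features in wild type, 6 clock genes and 1 feature in knockout. By those numbers the knockout pairs correlated at 0.151, 0.279 and 0.46 and the wild-type pairs at 0.0105, -0.0493 and 0.0588.

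Only differences that had not passed the threshold changed sign. Median centring gave Clock -0.12 in wild type, and Ciart 0.046 and Per2 0.0012 in knockout. Rorb in wild type was 0.14 from the authors' value table and 0.00073 with an offset of 50, and the covariate gave Arntl2 0.017 and Bhlhe40 0.034 there. Leaving out each array in turn, the wild-type differences ran from -0.13 to 0.15 for Rorb, from -0.11 to 0.058 for Bhlhe40 and from -0.16 to 0.00087 for Arntl2. In knockout they ran from -0.35 to 0.44 for Per2, from -0.23 to 0.18 for Per3, from -0.48 to 0.033 for Cry2, from -0.10 to 0.15 for Ciart, from -0.020 to 0.17 for Bhlhe40, from -0.027 to 0.34 for Dbp, from -0.11 to 0.25 for Npas2 and from -0.33 to 0.059 for Usp2. Outside the clock they ran there from -0.037 to 0.36 for Clmp, from -0.24 to 0.12 for Ppp1r27, from -0.18 to 0.033 for Psmb5, from -0.11 to 0.20 for Sphk2 and from -0.11 to 0.49 for Stard3. Signals near background, such as those of Npas2 on all wild-type arrays and of Per2 and Ciart on wild-type 14-day arrays, limit how well differences are measured.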
